A study of Mus musculus with 28 samples.

Results

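The vomeronasal type 1 receptor genes examined here are the protein-coding genes on mouse autosomes whose symbol starts with Vmn1r. GENCODE M21 lists 208 such gene records among 20807 autosomal protein-coding genes, with 207 distinct symbols because Vmn1r216 has 2 records. The 118 autosomal Vmn1r pseudogenes and 1 further protein-coding record off the autosomes were not members, and Vmn1r207-ps, which the annotation lists as protein-coding, was. H3K9me2 was measured in small numbers of cells by native chromatin immunoprecipitation (ULI-NChIP) in 28 libraries, 14 from immunoprecipitated chromatin and 14 from input. All cells were BL6/129 hybrid embryonic stem cells in FBS/LIF medium in which the endogenous Ehmt2 gene carries a degron (dTAG) and an mCherry reporter. The DMSO controls carry this allele too. Cells of the line EHMT2-dTAG-mcherry MERV-GFP received DMSO or the degrader dTAG-13 for 72 h and were sorted by the MERVL-GFP reporter into GFP-negative mESCs and GFP-positive 2CLCs, with 3 immunoprecipitation and 3 input libraries per condition, namely mESC DMSO and mESC dTAG, and likewise 2CLC DMSO and 2CLC dTAG. The line EHMT2-dTAG-mcherry, unsorted, received DMSO for 24 h and gave 2 libraries of each kind. The sorted cells came from a single clone, and TTNBP, an agonist of retinoic acid receptors, was added according to the labels for 2 of the replicates, which are not named, and according to the methods without that limit.

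Vomeronasal type 1 receptors are G protein-coupled receptors of sensory neurons in the vomeronasal organ, where they detect pheromones and other chemical cues. A mature neuron expresses very few of the many receptor genes, which lie in tandem arrays and are silent in other tissues. H3K9me2 is a mark of repressed chromatin that EHMT2, also known as G9a, deposits together with EHMT1. 2CLCs, or 2-cell-like cells, arise rarely in mESC cultures and share features with the embryo at the 2-cell stage.

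The values are positions of H3K9me2 domains, with a single list for each condition. A gene was counted as inside a domain when its annotated start lay in it, and the distance from the start to the nearest domain edge was positive inside and negative outside. A list for a whole condition has no replicate values, so no difference between conditions could be compared with the spread between cultures, and the depth behind the lists is unknown. Intervals on shares are Wilson 95% intervals over genes. Neighbouring members lie in the same domain, so these intervals are too narrow. A position in a domain is not a level of H3K9me2. Domains were called from percentiles of the signal over input, and the paper reports lower global H3K9me2 in both cell states after EHMT2 depletion. A start that entered a domain, or a higher covered share, is therefore not by itself a gain of the mark. Domain positions give no expression, and the labelled cell states were not checked against marker genes. Lists for the 4 sorted conditions are called the sorted sets, and the remaining list, named for neither a treatment nor a cell state, is called the unnamed set and was assigned to no condition.

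Nearly all Vmn1r genes started in an H3K9me2 domain in every sorted set. In mESC DMSO, 190 of the 208 members, or 91.3% (86.7% to 94.5%), lay in a domain, against 21.4% of all autosomal protein-coding genes. In mESC dTAG, 206 members, or 99.0% (96.6% to 99.7%), lay in a domain, against 22.8% of all genes. In 2CLC DMSO the count was 207, or 99.5% (97.3% to 99.9%), against 22.1%. In 2CLC dTAG it was also 207, against 25.5% of all genes. In all 4 sorted sets together, 186 members, or 89.4% (84.5% to 92.9%), stayed in domains, against 14.4% of all genes. No member was outside domains in all 4 sorted sets (Wilson upper limit 1.81%), whereas 67.1% of all genes were. The unnamed set held 160 members, or 76.9% (70.7% to 82.1%), against 29.8%, and 151 members, or 72.6%, were in domains of all 5 sets, against 13.1% of all genes.

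**Figure D1:**
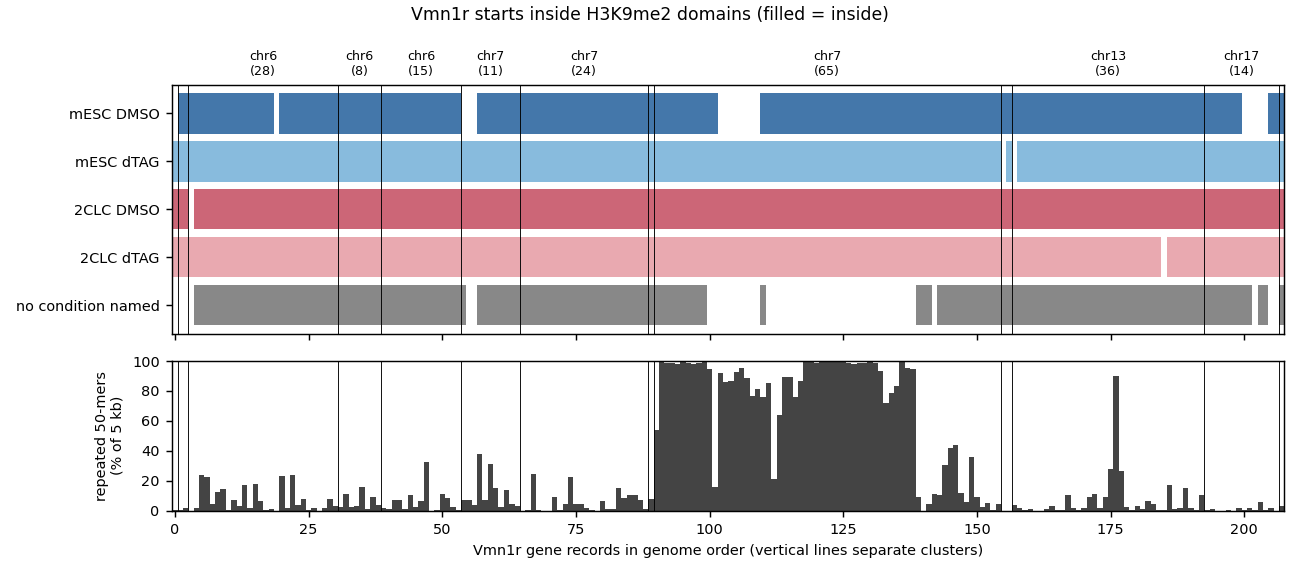
The upper panel has 1 row for each domain set and 1 column for each of the 208 Vmn1r records in genome order, filled where the start lay in a domain, and the lower panel gives the percent of repeated 50-mers in the 5 kb around each start. White gaps in the sorted rows cover 18 members of the mESC DMSO row, 2 of the mESC dTAG row and 1 of each 2CLC row.

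The other chemoreceptor families were also mostly in domains, and no test compares them with the Vmn1r genes. Of 121 Vmn2r genes, which encode the second family of vomeronasal receptors, 119 lay in domains of mESC DMSO and 117 in those of mESC dTAG. The 2CLC sets held 120 Vmn2r genes in DMSO and 119 in dTAG. Among 1128 Olfr genes, the odorant receptors of the main olfactory epithelium, 1010 were in domains of mESC DMSO and 963 in those of mESC dTAG. For the 50 Taar and Tas2r genes, which encode trace amine and bitter taste receptors, the counts were 43 and 34. In mESCs the count of Vmn1r genes inside was thus higher with dTAG than with DMSO and the counts of the other families were lower, with a single domain list on each side.

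**Figure D2:**
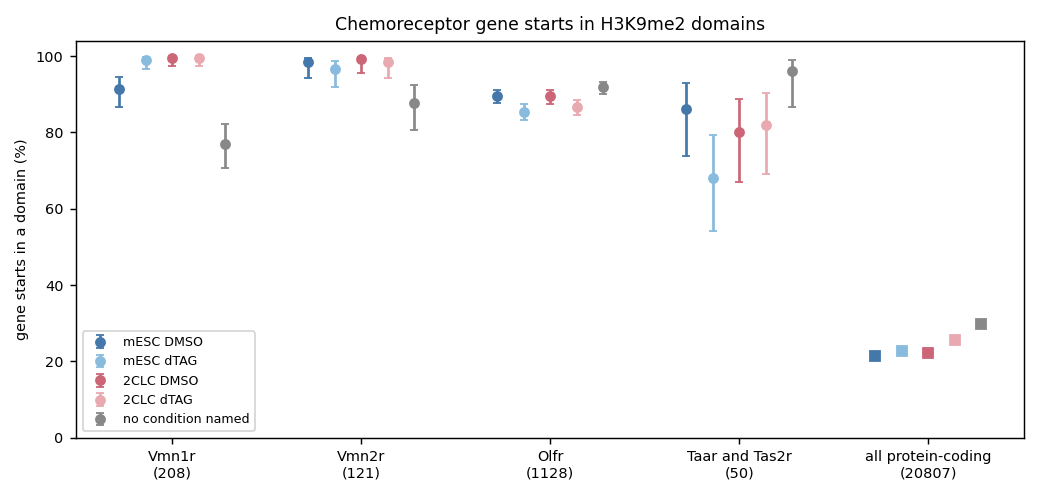
Each circle is the percent of a family's gene starts that lay in domains of a set, with a Wilson 95% interval over genes, squares are all 20807 autosomal protein-coding genes, and gene numbers stand in brackets. Vmn1r genes were lowest in the unnamed set (76.9%) and, among the sorted sets, in mESC DMSO (91.3%), and all families lay far above the 21.4% to 29.8% of all genes.

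To ask how depletion of EHMT2 changed the placement of the receptors, members were followed from DMSO to dTAG. In mESCs, 18 members (8.65%) entered domains, against 6.23% of all genes, and 2 left them, against 4.86%. In 2CLCs, 1 member entered and 1 left, against 7.48% and 4.07% of all genes. These shares are over all genes, whether inside or outside in DMSO. Only 18 members in mESCs and 1 in 2CLCs were outside in DMSO and free to enter, so the entering shares cannot be compared. Of 190 members inside in mESC DMSO 2 left, against 1012 of 4453 genes. Of 207 members inside in 2CLC DMSO 1 left, against 847 of 4593 genes. Between the cell states in DMSO, 18 members were in domains of 2CLCs and not of mESCs, against 3.67% of all genes, and 1 member was placed the other way, against 2.99%. In dTAG, 2 members were in 2CLC domains only, against 5.96%, and 1 in mESC domains only, against 3.25%. Few members were outside in any sorted set, which limits these counts in the same way. The mESC depletion comparison and the DMSO comparison of cell states share the mESC DMSO set, and their 18 members were the same genes, since each was outside a domain in mESC DMSO alone. Of all genes, 1.47% were outside in mESC DMSO alone. For members outside in a single other sorted set, the count was 2 for mESC dTAG, against 1.46% of all genes, 1 for 2CLC DMSO, against 0.86%, and 1 for 2CLC dTAG, against 0.937%. By GENCODE start, each of the 22 members outside a domain in any sorted set was outside in exactly 1 of them. This depends on the annotation. By RefSeq start, Vmn1r231 was inside in all sorted sets and Vmn1r235 was outside in both mESC sets. Vmn1r217 and Vmn1r220 were then outside in mESC dTAG.

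The 18 members outside domains in mESC DMSO lay in 6 gaps between domains, of 25 to 5310 kb, so they are not 18 separate events. Without the largest cluster, on chromosome 7, 10 of the remaining 143 members were outside, and all 10 entered domains in dTAG. Of all genes 6.23% entered, a share over genes inside and outside in DMSO alike, so it cannot be compared with these 10. Of these 143 members, 93.0% were inside in mESC DMSO, against 21.4% of all genes. The largest group was Vmn1r114 to Vmn1r121, 8 neighbours on chromosome 7 in a 300 kb gap at chr7:20799635-21099633 (mm10). Vmn1r118, which lay deepest in that gap, was at -113 kb in mESC DMSO and -162 kb in the unnamed set, at 1048 kb in mESC dTAG, and at 918 and 953 kb in the DMSO and dTAG sets of 2CLCs. It was thus outside in mESC DMSO and the unnamed set and almost 1 Mb or more from any edge in the other sorted sets. Vmn1r121, at the right end of the gap, missed the next domain by 1.12 kb in mESC DMSO. All 8 were outside domains in the unnamed set as well.

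Vmn1r55, Vmn1r56 and Vmn1r57 formed a second group at the left end of another chromosome 7 cluster. The domain there began at 5239655 in mESC DMSO and left 110 kb of the cluster uncovered, at the right end of a gap of 815 kb. Vmn1r55 was at -90.0 kb in mESC DMSO and 35.0 kb in mESC dTAG, at 45.0 and 50.01 kb in the DMSO and dTAG sets of 2CLCs, and at 5.97 kb in the unnamed set. Vmn1r56 and Vmn1r57 were at -42.9 kb and -21.2 kb in mESC DMSO and inside by 82.1 to 119 kb in the other sorted sets. Only mESC DMSO among the sorted sets left these 3 genes out.

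On chromosome 17, 5 members were outside in mESC DMSO in 2 gaps of 130 and 155 kb. Vmn1r231, Vmn1r232 and Vmn1r233 lay in the first gap at -13.1, -27.7 and -25.5 kb, and in the other sorted sets they were inside by 15.5 to 232 kb. Vmn1r234 lay in the second gap at -50.9 kb, against 30.9 kb in mESC dTAG, and 24.1 and 39.1 kb in 2CLCs with DMSO and dTAG. Vmn1r235 was at -20.6 kb in mESC DMSO and close to an edge in mESC dTAG, at 0.574 kb.

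Vmn1r1 (ENSMUSG00000091013.3, chr1:182154704-182164486, minus strand) is the lone member on chromosome 1 and had the greatest distance of all. Its start lay in a gap of 5310 kb in mESC DMSO, 1335 kb from the nearest domain, and 349 kb from the nearest in the unnamed set. It lay 19.5 kb inside a domain in both dTAG sets and 9.52 kb inside in 2CLC DMSO, with domain widths of 130 kb in dTAG mESCs, and 110 and 105 kb in 2CLCs with DMSO and dTAG. Vmn1r20 on chromosome 6 was the remaining gene, at -2.60 kb in mESC DMSO in a gap of 25 kb and inside by 27.4 to 87.4 kb in the other sorted sets.

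The 4 starts outside a domain in the remaining sorted sets were all within 1 bin of 5 kb of an edge. Vmn1r188 was at -3.48 kb in mESC dTAG and Vmn1r184 at -0.708 kb in the same set. Vmn1r4 was at -2.32 kb in 2CLC DMSO. The record ENSMUSG00000116057.1 of Vmn1r216 was at -1.16 kb in 2CLC dTAG, while the other record of that symbol was inside the same set by 0.939 kb. At a bin size of 5 kb these 4 placements hang on a single bin.

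With clusters split at gaps over 1 Mb between neighbouring members, the genes fell into 13 clusters on 7 chromosomes, and the 8 clusters of at least 5 members held 201 of the 208. On chromosome 6, cluster 3 (chr6:56924015-58475330) held 28 members from Vmn1r4 to Vmn1r31, cluster 4 (chr6:66552180-66810609) 8 members from Vmn1r32 to Vmn1r39 and cluster 5 (chr6:89707540-90271213) 15 from Vmn1r40 to Vmn1r54. On chromosome 7, cluster 6 (chr7:5129291-6011010) held 11 members from Vmn1r55 to Vmn1r65, cluster 7 (chr7:10272991-13220657) 24 from Vmn1r66 to Vmn1r89 and cluster 9 (chr7:20099680-24063554) 65 from Vmn1r91 to Vmn1r183. Cluster 11 (chr13:22084440-23253906) held 36 members from Vmn1r188 to Vmn1r223 and cluster 12 (chr17:20414146-21314912) 14 from Vmn1r224 to Vmn1r237. The small clusters were Vmn1r1, Vmn1r2 with Vmn1r3 (chr4:3167320-3185358), Vmn1r90 (chr7:14555474-14563506), Vmn1r184 with Vmn1r185 (chr7:26260334-26618464) and Vmn1r238 on chromosome 18.

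The 13 spans from first to last base covered 12.6 Mb. Domains covered 91.3% of these bases in DMSO mESCs and 96.5% in dTAG mESCs, against 52.4% and 44.6% of the autosomes as a whole. In 2CLCs the values were 97.3% with DMSO and 97.0% with dTAG, against 49.7% and 46.7%. Coverage of the clusters was thus higher in mESC dTAG than in mESC DMSO while that of the autosomes was lower. In the unnamed set, 73.5% of the cluster bases were covered, against 63.3% of the autosomes. Of the 13 clusters, 7 were covered throughout with DMSO and 8 with dTAG in mESCs, and 8 and 9 in 2CLCs.

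**Figure D3:**
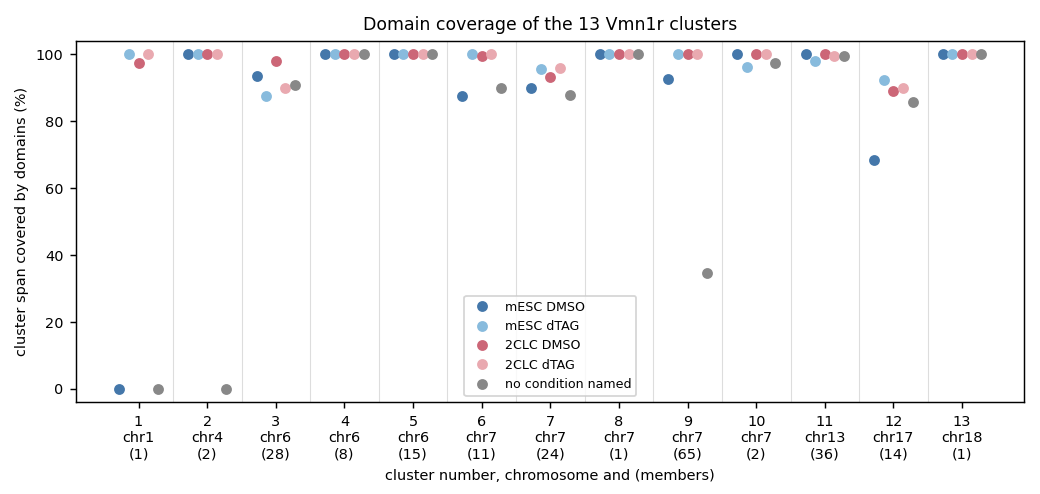
Each point is the percent of a cluster's span covered by domains of a set, for the 13 clusters with their chromosome and number of members. Most points lie at or near 100%, and the low ones are clusters 1 (0%) and 12 (68.4%) in mESC DMSO and clusters 1, 2 and 9 in the unnamed set.

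Between DMSO and dTAG in mESCs, the covered share was higher in 5 clusters, lower in 3 and equal in 5. It was higher by 100 percentage points in cluster 1, 23.9 in cluster 12, 12.5 in cluster 6, 7.57 in cluster 9 and 5.60 in cluster 7. It fell by 6.12 points in cluster 3. It also fell by 3.99 points in cluster 10, which holds Vmn1r184 and Vmn1r185, and fell by 2.01 points in cluster 11. In 2CLCs, 12 of the 13 clusters moved by at most 5 points, and cluster 3 fell by 7.91. No cluster rose in 1 cell state and fell in the other.

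Cluster 3 was lower after depletion in both cell states, and the bases it lost held no Vmn1r start. They lay in the middle of the cluster, around Ppm1k and Herc6, which are not receptor genes. The gap there was 135 kb wide in mESC dTAG and 145 kb in 2CLC dTAG, where the mESC DMSO set had a gap of 30 kb and the 2CLC DMSO set had 25 kb. Herc6, which encodes a HECT-type ubiquitin ligase family protein, was in domains of both DMSO sets and of neither dTAG set. The members on both sides stayed in domains, with Vmn1r27 at 323 kb in both mESC sets, and at 438 and 333 kb in 2CLCs with DMSO and dTAG.

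Cluster 5 was the most constant large cluster, with all 15 members in a domain of 640 kb in each sorted set. The left edge was at 89686288 in 3 of the sorted sets and at 89681288 in mESC dTAG. Vmn1r47, in the middle of the cluster, was 305 kb from an edge in mESC dTAG and 310 kb from an edge in the other 3 sorted sets. Cluster 4 was also covered throughout in all 5 sets, in domains of 340 to 895 kb.

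Cluster 11 on chromosome 13 stayed covered but was divided after depletion. A domain of 1245 kb with identical edges in both DMSO sets (chr13:22052917-23297915) held all 36 members. In mESC dTAG the cluster lay in 5 domains of 30 to 780 kb separated by gaps of 5 kb, and 35 members were inside. In 2CLC dTAG it lay in 2 domains of 1080 and 255 kb, again with 35 members inside. The unnamed set also divided it, into domains of 575 and 660 kb with a gap of 5 kb between them. A gap of 5 kb is a single bin. Vmn1r206, in the middle, was 571 kb from an edge in both DMSO sets, 291 kb in mESC dTAG and 474 kb in 2CLC dTAG. The DMSO domain ended 9.70 kb from the start of Hist1h2bj, a histone H2B gene, on the left and 71.3 kb from Zfp322a on the right.

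Cluster 12 on chromosome 17 lay in domains of 615, 100 and 145 kb in mESC DMSO. Its left part was inside a far wider domain in the other sorted sets, of 3245 kb in dTAG mESCs, and 3050 and 3205 kb in 2CLCs with DMSO and dTAG. Vmn1r224, its first member, was 137 kb from an edge in DMSO mESCs and 723 kb in dTAG mESCs, and the distances in 2CLCs were 538 kb with DMSO and 683 kb with dTAG. The cluster also holds Vmn2r108, Vmn2r109, Vmn2r110 and Fpr-rs3, which were in domains of all 5 sets, and Ppp2r1a, a phosphatase scaffold subunit gene, and Zfp160, which were outside in mESC DMSO and inside in the other sorted sets.

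**Figure D4:**
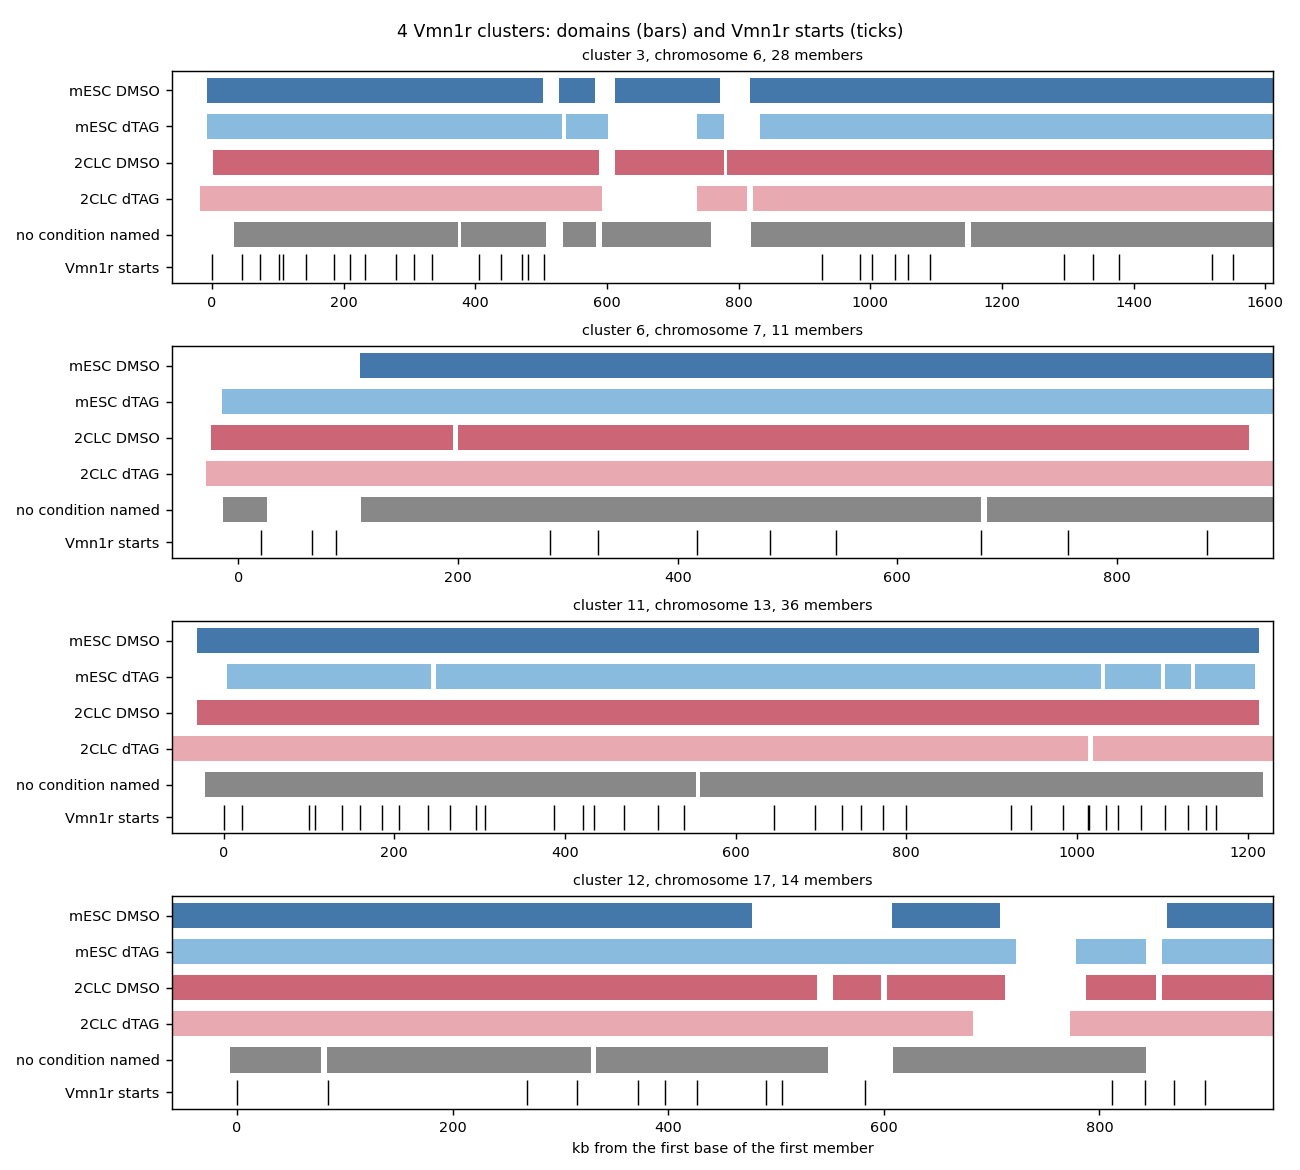
Domains of the 5 sets (bars, cut at 60 kb beyond the cluster) and Vmn1r starts (ticks) are drawn along clusters 3, 6, 11 and 12, in kb from the first base of the first member. The wider gap after depletion in cluster 3 holds no tick, and clusters 6 and 12 have gaps with ticks in mESC DMSO. Cluster 11 is divided by 5 kb gaps in the dTAG sets and in the set with no condition named.

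Cluster 7 shares its main domain with the Zscan4 genes, which are active in 2-cell embryos. The domain held 19 of the 24 members in all 4 sorted sets and all Zscan4 starts of the cluster. Vmn1r66, the first member, was 2202 kb from the nearest edge in both DMSO sets, 2502 kb in mESC dTAG and 2647 kb in 2CLC dTAG. The other 5 members lay in a separate domain of 200 to 250 kb. Between them, all sorted sets had a gap with no member around Trim28, which encodes a corepressor of zinc finger proteins, and neighbouring zinc finger genes, 295 kb wide with DMSO and 130 kb with dTAG in mESCs, and 175 and 125 kb in 2CLCs. Vmn1r90, alone in cluster 8, was 1214 to 1289 kb inside a domain of 2515 to 2595 kb in the sorted sets and 133 kb inside a domain of 300 kb in the unnamed set.

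Cluster 9, the largest, is made mostly of repeated sequence, though not throughout. Of its 65 members, 47 had at least 50% repeated 50-mers in the 5 kb around the start. Of its 3964 kb, 79.2% of the positions start a 50-mer that occurs again on the same strand of chromosome 7, against 7.62% for the autosomes on average. In mESC dTAG, 2CLC DMSO and 2CLC dTAG a single domain of 4250, 4085 and 4155 kb held all 65 members. In mESC DMSO, 57 members lay in 2 domains of 840 and 2985 kb on both sides of the 300 kb gap. In the unnamed set, 26 of the 65 were inside. Vmn1r155, the member farthest from an edge in mESC DMSO, was 1427 kb inside there, 1457 kb inside in both dTAG sets, 1422 kb inside in 2CLC DMSO, and at -628 kb in the unnamed set. The 38 other protein-coding starts in this cluster were all in domains of mESC DMSO, so the gap held Vmn1r starts and no other coding start.

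In the unnamed set, members outside domains had the higher median of repeated sequence in cluster 9 and the lower one in the other clusters. In the other clusters the 9 members outside had a median of 0.68% repeated 50-mers in the 5 kb around the start, and the 134 inside 2.59%. The 39 members of cluster 9 outside this set's domains had a median of 93.4%, and the 26 inside had a median of 38.9%. In mESC DMSO the 8 members outside had a median of 87.7% and the 57 inside 89.5%. By 5 kb bins, the 60 bins of the cluster outside mESC DMSO domains had a median of 89.8% and the 722 inside 98.6%. The 10 members outside mESC DMSO domains in other clusters had a median of 1.32%, against 2.28% for the 133 inside. Within cluster 9 and within the other clusters, the median was thus lower outside mESC DMSO domains than inside. Over all clusters, 8 of the 18 members outside and 40 of the 190 inside had at least 50% repeated 50-mers. Per the methods, a single alignment was kept for each read with several matches, and equally good matches were put in random order. Reads that match several copies equally well can thus not be assigned to a copy. The part of such reads in the placement of this cluster was not tested.

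**Figure D5:**
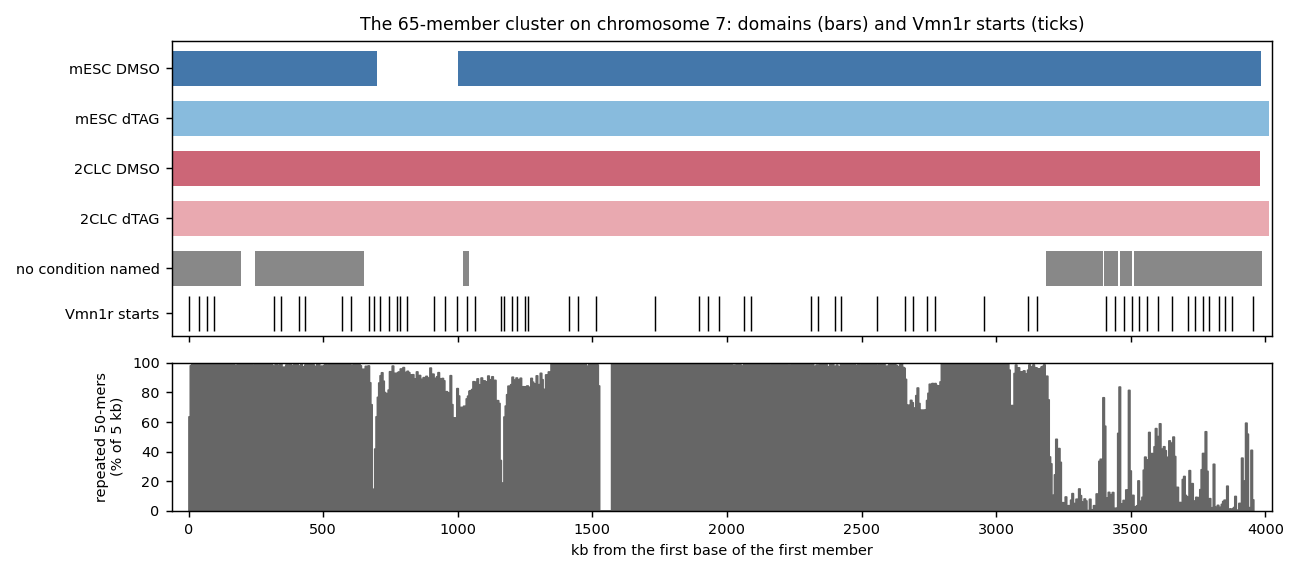
The upper panel shows the domains of the 5 sets (bars) and the Vmn1r starts (ticks) along cluster 9 in kb from the first base of its first member, and the lower panel gives the percent of repeated 50-mers in each 5 kb bin, with unsequenced bases of the assembly counted as not repeated. The mESC DMSO row has a single gap of 300 kb, the next 3 rows have none, and the row of the set with no condition named is empty over much of the repeated part.

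The promoters of these genes were taken as 300 bases, from 250 before to 50 after the RefSeq start on GRCm38. They show how alike many members of cluster 9 are. RefSeq windows were found for 183 of the 207 symbols. In cluster 9, the median identity of a promoter to its closest match among the 183 was 99.7% (range 50% to 100%). In the other clusters with at least 7 promoters, the medians were 53.5% to 89.3%. Clusters 1, 8 and 10 had 1 promoter each, at 52.3%, 81.3% and 52.3%. There were 28 pairs of members with identical promoters, and in 6 of them 1 member was inside and the other outside mESC DMSO domains. The first of these pairs, Vmn1r111 (chr7:20703167-20703466, minus strand) and Vmn1r118 (chr7:20912298-20912597, minus strand), is printed to show that the same 300 bases lay on both sides of a domain edge. Reads that fall wholly in these bases cannot be assigned to a copy. Vmn1r57 (chr7:5220228-5220527, plus strand) and Vmn1r1 (chr1:182158049-182158348, minus strand) are printed as members outside mESC DMSO domains in sequence with few repeated 50-mers. All are written 5′ to 3′ with CG dinucleotides in capitals.
Vmn1r111: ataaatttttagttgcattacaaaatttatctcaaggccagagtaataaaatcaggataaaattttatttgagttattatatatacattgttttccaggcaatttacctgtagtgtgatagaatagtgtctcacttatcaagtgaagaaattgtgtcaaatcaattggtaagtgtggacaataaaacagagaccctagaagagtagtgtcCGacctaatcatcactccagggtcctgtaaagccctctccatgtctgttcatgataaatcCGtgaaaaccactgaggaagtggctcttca
Vmn1r118: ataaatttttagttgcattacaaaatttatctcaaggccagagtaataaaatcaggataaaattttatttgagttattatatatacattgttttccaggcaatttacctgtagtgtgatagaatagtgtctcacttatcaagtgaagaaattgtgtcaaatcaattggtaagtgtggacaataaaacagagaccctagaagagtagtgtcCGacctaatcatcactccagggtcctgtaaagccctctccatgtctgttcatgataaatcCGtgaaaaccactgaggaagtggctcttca
Vmn1r57: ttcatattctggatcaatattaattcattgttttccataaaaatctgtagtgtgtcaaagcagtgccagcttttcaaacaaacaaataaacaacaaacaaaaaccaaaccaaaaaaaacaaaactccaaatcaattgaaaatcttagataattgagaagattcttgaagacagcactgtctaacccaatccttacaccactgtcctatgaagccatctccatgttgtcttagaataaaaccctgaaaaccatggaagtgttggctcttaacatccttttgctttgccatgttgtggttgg
Vmn1r1: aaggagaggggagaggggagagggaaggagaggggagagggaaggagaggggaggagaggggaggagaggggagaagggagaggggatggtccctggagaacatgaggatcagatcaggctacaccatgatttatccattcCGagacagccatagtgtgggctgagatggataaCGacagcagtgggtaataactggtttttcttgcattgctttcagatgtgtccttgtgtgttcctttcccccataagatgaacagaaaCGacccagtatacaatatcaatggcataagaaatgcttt

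The promoter of Vmn1r118 is shared by 5 members of cluster 9, Vmn1r111, Vmn1r118, Vmn1r131, Vmn1r138 and Vmn1r166, of which 4 were in mESC DMSO domains and all 5 in the domains of the other sorted sets. Vmn1r111 alone of the 5 was in the unnamed set's domains. The printed promoters hold 2 CG dinucleotides in Vmn1r111 and Vmn1r118, 0 in Vmn1r57 and 3 in Vmn1r1. Over the 183 members the median was 1 (range 0 to 6) and 44 had none, against a median of 7 over 25748 autosomal genes. At most 2 CG were found in 81.4% of the members' promoters and in 23.5% of all promoters. Median GC content was 36% in the members and 53% in all. The letters TATAAA occurred on either strand in 81 of the 183 members' promoters, or 44.3%, and in 14.2% of all promoters. Olfr promoters were similar, with a median of 1 CG and TATAAA in 41.2%, and 23.3% of Vmn2r promoters held these letters. The RefSeq start equalled the GENCODE start for 51 of the 183, and the median difference was 2.25 kb. For Vmn1r57 and Vmn1r1 the starts differed by 1.99 kb and 6.39 kb, and both positions lay outside mESC DMSO domains. Other placements changed with the start used. The RefSeq start of Vmn1r231, 14440 bp from the GENCODE start, lay inside a mESC DMSO domain. That of Vmn1r235, 4016 bp away, lay outside domains in mESC dTAG as well as in mESC DMSO.

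The cluster spans as a whole were rich in repeats and slightly low in GC. Soft-masked bases, those marked as interspersed or simple repeats, made up 54.9% of the Vmn1r spans and 33.5% of the autosomes. Repeated 50-mers made up 38.0% of the Vmn1r spans, 31.5% of the Vmn2r spans and 11.7% of the Olfr spans. GC content was 40.3% in the Vmn1r spans and 41.9% in the autosomes.

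The median width of the domain around a member inside was 1245 kb in both DMSO sets, 1025 kb in mESC dTAG and 1080 kb in 2CLC dTAG. Wide domains hold many members, and with each domain counted once the medians were 720 kb with DMSO and 340 kb with dTAG in mESCs, and 585 and 670 kb in 2CLCs. The first medians are over genes, and the like values for all autosomal protein-coding genes inside domains follow. They were 650 kb with DMSO and 380 kb with dTAG in mESCs, and 755 and 255 kb in 2CLCs. In mESCs the median distance from start to edge was 220 kb with DMSO and 259 kb with dTAG for the members, and 109 and 54.9 kb for all genes. In 2CLCs it was 255 and 285 kb for the members, and 119 and 42.5 kb for all genes. For the other receptor families, the medians over genes in mESC DMSO were 1035 kb for Vmn2r and 875 kb for Olfr, below the 1245 kb of the members. Taar and Tas2r were above it, at 2360 kb. In mESC dTAG the medians were 1980 kb for Vmn2r, 1000 kb for Olfr and 2190 kb for Taar and Tas2r, against 1025 kb. In these other families too, the median distance to an edge in mESCs was greater with dTAG than with DMSO. It was 215 kb with DMSO and 324 kb with dTAG for Vmn2r, 183 and 220 kb for Olfr, and 168 and 660 kb for Taar and Tas2r. The members inside shared 16 domains with DMSO and 21 with dTAG in mESCs, 19 and 17 in 2CLCs, and 28 in the unnamed set, where the median width was 565 kb.

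Of 89 other protein-coding starts inside the spans, 70 were in domains with DMSO and 77 with dTAG in mESCs, 75 and 79 in 2CLCs, and 45 in the unnamed set. These 89 include 10 further vomeronasal receptor genes (V1ra8, V1rd19 and 8 Vmn2r genes), which were inside in all 5 sets, and 38 genes of cluster 9, which were inside in all 4 sorted sets. Of the 42 that are neither, 23 and 30 were inside in mESCs with DMSO and dTAG, 28 and 32 in 2CLCs, and 23 in the unnamed set, where the shares over all genes were 21.4% and 22.8%, 22.1% and 25.5%, and 29.8%. Of 36 protein-coding starts within 100 kb outside the spans, 12 and 18 were in domains of mESCs with DMSO and dTAG, 15 and 24 in those of 2CLCs, and 15 in the unnamed set. Of the 118 Vmn1r pseudogenes, which carry receptor sequence without an intact reading frame, 102 and 108 were inside in mESCs, 109 and 110 in 2CLCs, and 96 in the unnamed set.

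Genes that act with the receptors were read against all autosomal protein-coding genes, of which 67.1% were in no domain of any sorted set and 21.4% to 25.5% were in a domain of each sorted set. Of 12 genes of vomeronasal signal transduction, 10 were in no sorted set. Among them were Gnai2, which encodes the G protein subunit coupled to type 1 receptors, and Trpc2, the cation channel of vomeronasal neurons. Kcnj3, a G protein-gated potassium channel gene, was in domains of all 4 sorted sets, and Ano2, a calcium-activated chloride channel gene, in mESC DMSO only. Of 17 genes for neuron identity and receptor choice, 15 were in no sorted set, against the same 67.1%. Neurod1, a neurogenic transcription factor gene, was in all sorted sets except mESC dTAG, and Atf5, a transcription factor gene that acts in the maturation of olfactory neurons, in 2CLC dTAG only. These lists are short, and no test compares them with other genes. The transduction list had 2 genes inside in mESC DMSO and 1 in each other sorted set. The neuron identity list had 1 with DMSO and 0 with dTAG in mESCs, and 1 and 2 in 2CLCs.

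The remaining list was meant for other receptors of vomeronasal neurons and their partners, several of which lie close together on chromosome 17. It was taken by symbol, as all Fpr and H2-M10 genes with H2-M1 and H2-M9. Whether each gene acts in these neurons was not checked. Of its 15 genes, 4 (Fpr1, Fpr2, Fpr3 and H2-M10.6) were in no sorted set, against 67.1% of all genes. In single sets, 7 were in domains of each mESC set, 11 in those of 2CLC DMSO and 8 in those of 2CLC dTAG. The formyl peptide receptor genes Fpr-rs3, Fpr-rs4 and Fpr-rs7 and the H2-M genes H2-M1, H2-M9 and H2-M10.4, class Ib major histocompatibility genes expressed with type 2 receptors, were in all 4 sorted sets. Fpr-rs6 was inside in all sorted sets except mESC DMSO. H2-M10.1 was in both 2CLC sets, H2-M10.5 in both DMSO sets, and H2-M10.2 and H2-M10.3 in 2CLC DMSO alone.

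In the unnamed set, 48 members were outside domains, in 9 gaps of 5 to 2145 kb. Of these, 39 were in cluster 9. The other 9 included the whole of clusters 1 and 2, with Vmn1r2 and Vmn1r3 at -21.9 and -40.0 kb, although both genes were 57.7 and 75.7 kb inside a domain in each sorted set. Vmn1r4, Vmn1r56, Vmn1r57, Vmn1r233, Vmn1r236 and Vmn1r237 were the rest. Clusters 4, 5, 8 and 13 were covered throughout in this set as in all sorted sets.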

How the data were processed

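The authors trimmed and aligned ULI-NChIP reads to mm10, per the labels and methods with STAR 2.7.10 in a mode that places reads with several matches, removed duplicates (Picard 2.26.0) and blacklisted high-signal reads, scaled coverage to genome content (deepTools 3.5.1), averaged it in overlapping windows, and took log2 of immunoprecipitation over input. Domains ran from bins of a high percentile outward to bins of a low one. Whether replicates were pooled, and whether percentiles were set per list, was not stated. The deposited lists hold chromosome, start and end, with a score of 0 throughout, which was not used. 4 of the 5 lists name a sorted condition. The depth per sample is not given in these lists.

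Gene starts were those of GENCODE M21 (GRCm38). Repeated 50-mers were those found more than once on a chromosome strand, and promoters came from the RefSeq table on GRCm38 and were compared with edlib 1.3.9.post1. Scripts ran in Python 3.11.15 with numpy 2.4.6 and pandas 2.3.3, and the placement code was tested on simulated data. No test compares conditions. Bins of 5 kb were the trials of intervals on bases. The members, gene lists and comparisons were chosen with earlier results of these data known. Named genes were those outside a domain in a sorted set, the first, last and, in clusters of at least 5 members, deepest member of each cluster, and listed pathway genes in a domain. Not all are printed. Genes named beyond that rule, such as cluster neighbours, and the printed promoters were chosen after their values were seen. Alternatives tried were the minimum width, merging, gene bodies, depth inside, pseudogenes, repeated sequence, cluster definition, chromosomes left out and RefSeq starts.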

Additional observations from a re-analysis of the deposited data

How the results depend on the processing

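No paired analysis was possible because each condition has a single domain list with no replicate values, and for the same reason no replicate could be left out. Of 241 summary values recomputed under alternatives, 172 stayed within the 95% interval of the main value or, for counts of genes, within 1.5 times of it, and 69 moved. The tally does not measure stability. Leaving out chromosome 1, 4 or 18, for example, kept 206 or 207 of the 208 starts, so those shares could hardly move. Nothing here measures variation between cultures, the depth of the libraries is unknown, and counts of 1 or 2 genes change with single bins. The cause of the moves was not tested. RefSeq starts, leaving out cluster 9 and the distances of single genes were chosen after seeing the data.

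Merging domains over gaps of at most 10 kb put 100% of starts inside in both dTAG sets, gave 0 starts leaving in either cell state and 0 differing between the cell states in dTAG in either direction, widened the unnamed set's median to 890 kb, and put Vmn1r184 (331 kb inside) and Vmn1r188 (31.5 kb) in mESC dTAG and the outside record of Vmn1r216 (259 kb) in 2CLC dTAG inside. Any base of the gene body gave 100% in mESC dTAG and in 2CLC DMSO, 0 leaving in mESCs, 0 entering in 2CLCs, 0 in mESC domains only in DMSO and 0 in 2CLC domains only in dTAG. With domains of at least 50 kb, 4 left in mESCs, 2 entered in 2CLCs and 4 were in 2CLC domains only in dTAG. With starts at least 10 kb inside, the mESC dTAG share was 95.7%, 7 left in mESCs, 2 left and 2 entered in 2CLCs, 0 were in mESC domains only in DMSO, and in dTAG 2 were in mESC and 9 in 2CLC domains only. With pseudogenes the shares were 96.3% in mESC dTAG and, for DMSO and dTAG, 96.9% and 97.2% in 2CLCs, with 2 entering in 2CLCs and 4 in 2CLC domains only in dTAG.

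Members with under 50% repeated 50-mers had 92.5% inside in the unnamed set and 10 entering in mESCs, and 10 in 2CLC domains only in DMSO. Without cluster 9 these values were 93.7%, 10 and 10. RefSeq starts gave 100% in 2CLC DMSO, 0 entering in 2CLCs, 0 in mESC domains only in DMSO and 4 in 2CLC domains only in dTAG. Clusters counted equally gave 86.2% in mESC DMSO, 95.9% in mESC dTAG and 81.7% in all 4 sorted sets. Shares of starts became 100% in 2CLC DMSO and 70.1% in the unnamed set without chromosome 6, 93.3% in the unnamed set without chromosome 7 and 100% in 2CLC dTAG without chromosome 13.

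Covered bases of the clusters became 92.7% and 97.2% in mESCs (DMSO and dTAG) and 98.8% and 97.7% in 2CLCs with clusters split at 500 kb, and 75.8% in the unnamed set with splits at 2 Mb. With spans widened by 100 kb they were 87.2%, 93.0%, 93.2%, 93.8% and, unnamed, 71.6%. Without chromosome 6 they were 97.6% in mESC dTAG, 97.9% in 2CLC dTAG and 68.8% unnamed. Without chromosome 7 the same sets had 93.5%, 94.4% and 93.2%. Without chromosome 13 the unnamed set had 70.8%, and without chromosome 17 mESC DMSO had 93.0% and 2CLC DMSO 98.0%. With each domain counted once, median widths were 720 and 340 kb in mESCs (DMSO and dTAG), 585 and 670 kb in 2CLCs and 332 kb in the unnamed set.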
